A study of Mus musculus with 12 samples.

Results

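Serpins are secreted or intracellular proteins that mostly inhibit serine proteases: the protease cuts an exposed loop of the serpin and is trapped by the change of shape that follows. Most genes of the Serpina group are made in hepatocytes, the main cells of the liver, and enter the plasma. Some of them, such as Serpina6 and Serpina7, inhibit no protease and carry hormones instead, and the serpins of the alpha-1-antichymotrypsin type, to which the mouse Serpina3 genes belong, are known as acute phase proteins, whose output changes with inflammation.

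The genes described here are the members of the Serpina protease inhibitor cluster that could be read on the array, 5 of the 10 genes listed as members. They were selected by symbol, and the probe set of each gene was chosen by the highest mean over the 12 arrays, a choice that had no effect because each of the 5 genes has 1 probe set. The 5 genes are Serpina3n, Serpina4-ps1, Serpina6, Serpina7 and Serpina11, of 19938 genes tested in all. Serpina3c, Serpina3f, Serpina3g, Serpina3k and Serpina3m were paired with no probe set of their own in the platform annotation used and were not analysed here. The members were named with earlier results of these data known, so counts over them are a description of these genes. In the RefSeq gene order of GRCm38.p6, 9 of the 10 listed members lie in one run of Serpina genes on chromosome 12, whereas Serpina7 lies on chromosome X, so the word cluster does not apply to Serpina7.

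The livers of 12 C57Bl/6J mice, an inbred strain, were compared, with 1 array per mouse. The 6 sh Grb14 mice had received an adenovirus that expresses a short hairpin RNA against Grb14, an adapter protein that binds and inhibits the insulin receptor, and the 6 sh scramble mice an adenovirus with a scrambled hairpin. Both groups were 10 weeks old when the virus was given by vein, both carried adenovirus, and both were studied fed, 7 days later. The labels name 1 hairpin against Grb14, and uninfected livers were not analysed here. All values are log2 expression values, on which a difference of 1 is a doubling, and each change is the sh Grb14 mean minus the sh scramble mean, given with its standard error (SE) in a limma fit over all genes.

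Grb14 itself averaged 8.24 ± 0.13 in sh Grb14 livers and 10.15 ± 0.063 in sh scramble livers (SD, n = 6 each). Array medians over all probe sets lay between 7.06 and 7.17. The hepatocyte markers measured (Alb, Apoa1, Ttr, Fgb and Ahsg) were near the top of the scale in both groups, with a mean level per array of 13.39 to 13.50 in sh Grb14 and 13.54 to 13.65 in sh scramble livers, and 3 of the 5 were lower, while Alb and Ahsg missed the threshold, though both were lower with arrays centred on the tested genes. All 6 markers of monocytes and recruited macrophages were higher in sh Grb14 livers (mean level 9.87 to 10.31, against 7.98 to 8.32), as were 5 of 5 neutrophil markers (7.22 to 7.70, against 5.83 to 6.03). Among T cell markers 5 of 6 were higher, and Cd4 was lower (list mean 8.57 to 8.89, against 7.19 to 7.33). Among markers of NK and cytotoxic cells 5 of 6 were higher (8.19 to 8.44, against 6.43 to 6.57), and 3 of 3 of B cells (6.74 to 7.07, against 6.31 to 6.66). Of Kupffer cells, the resident macrophages, 1 of 5 markers was higher and 4 missed the threshold (9.003 to 9.242, against 8.54 to 8.89). Sinusoidal endothelial markers were split, with 2 higher and 3 lower (9.54 to 9.70, against 9.59 to 9.76), as were those of stellate cells and fibroblasts, with 3 higher, 2 lower and 1 that missed the threshold (9.91 to 10.33, against 9.62 to 10.03). Beside these counts, 25.8% of all genes tested were higher and 39.5% lower. Values on this scale do not reach 0, so absence of a marker cannot be read. The part of these cells in the changes below was not tested, and in whole liver fewer cells of a type cannot be told apart from less RNA per cell.

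Promoter sequences are shown for the members that changed in opposite directions, because Serpina7 and Serpina3n were higher and Serpina11 lower in sh Grb14 livers. Each is the 250 bases before the start of the gene in RefSeq (GRCm38.p6), the first window listed for that gene, read 5′ to 3′ on the gene's own strand. The table used held 3 of the 5 measured members. Capitals mark matches, on either strand, to TTCNNNGAA (STAT factors), TTGCNNAA (C/EBP factors), GGGANTTCC (NF-kB), TGTTCT (a core motif of the glucocorticoid receptor), GTTAAT (a core motif of HNF1) and TATAAA (the TATA box).
Serpina7 (chrX:139085237-139085486, minus strand): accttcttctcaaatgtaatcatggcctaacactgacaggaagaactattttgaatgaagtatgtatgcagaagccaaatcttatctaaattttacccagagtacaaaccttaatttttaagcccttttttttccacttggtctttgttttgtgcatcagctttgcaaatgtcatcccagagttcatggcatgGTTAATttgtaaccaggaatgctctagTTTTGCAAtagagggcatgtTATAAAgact
Serpina3n (chr12:104406458-104406707, plus strand): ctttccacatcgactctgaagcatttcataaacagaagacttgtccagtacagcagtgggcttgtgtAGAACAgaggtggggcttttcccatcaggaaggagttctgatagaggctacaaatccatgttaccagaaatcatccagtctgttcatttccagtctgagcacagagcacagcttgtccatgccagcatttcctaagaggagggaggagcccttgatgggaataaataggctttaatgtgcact
Serpina11 (chr12:103989958-103990207, minus strand): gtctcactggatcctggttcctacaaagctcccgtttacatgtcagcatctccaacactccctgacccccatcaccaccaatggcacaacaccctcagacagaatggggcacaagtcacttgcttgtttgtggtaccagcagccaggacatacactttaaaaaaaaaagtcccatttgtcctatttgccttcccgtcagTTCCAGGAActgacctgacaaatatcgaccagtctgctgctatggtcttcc

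The 3 windows held different motifs. That of Serpina7 had 1 match each to the HNF1 motif, the C/EBP motif and the TATA box, which begin 57, 30 and 10 bases before the listed start. The table lists another start for this gene, from which the TATA box lies 27 bases away. The Serpina3n window had 1 match, to the glucocorticoid receptor motif, and that of Serpina11 had 1 match, to the STAT motif, 51 bases before the start. Of 27025 promoters of the same length in the table, 6.52% held the HNF1 motif, 9.55% the C/EBP motif, 13.0% the TATA box, 16.2% the glucocorticoid receptor motif, 7.18% the STAT motif and 1.42% the NF-kB motif. The window of Serpina3c, a listed member with no value here, matched that of Serpina3n at 229 of 247 aligned bases (92.7%). A match is a description of letters and not of a bound site.

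Serpina7, Serpina3n, Serpina6, Serpina11 and Serpina4-ps1 all differed between the groups. Serpina7 and Serpina3n rose, while Serpina6, Serpina11 and Serpina4-ps1 fell, and in all 5 the values of the groups did not overlap. The liver as a whole changed widely: 65.3% of all genes passed the test, 25.8% as higher and 39.5% as lower, and the groups did not overlap in 41.2% of genes. A count of 2 higher and 3 lower among 5 genes therefore says little about these genes as a set. What sets the members apart from each other is the size of their changes, which ran from −4.55 to 1.71, beside a median change of all genes of −0.10 and a median absolute change of 0.23. Centring each array on the median of the tested genes, an alternative chosen after the data were seen, moved the median of all genes to −0.25 and made 23.0% of the called genes higher, against 39.5% without it. The medians of the tested genes were 7.67 to 7.74 on sh Grb14 arrays and 7.52 to 7.60 on sh scramble arrays. This centring therefore lowers the change of every gene by the same amount.

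**Figure D1:**
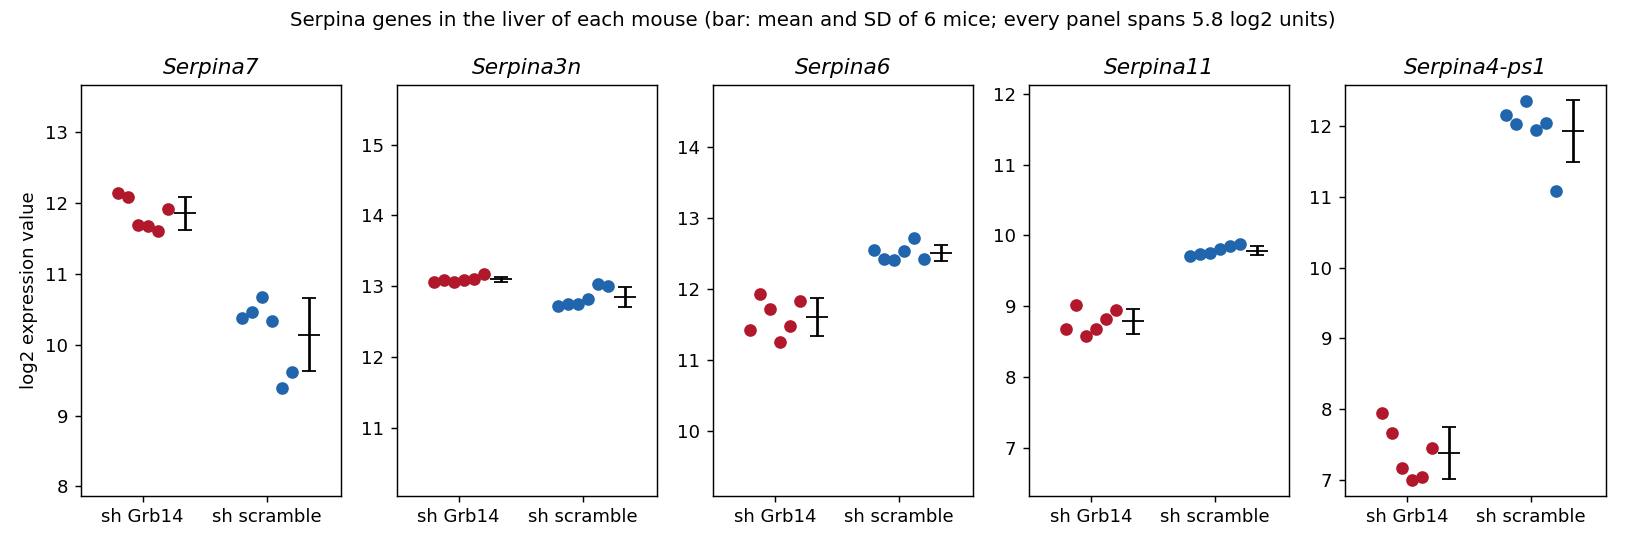
The log2 expression value (vertical axis) of each measured Serpina member is plotted for the 6 sh Grb14 mice (left, red) and the 6 sh scramble mice (right, blue), with the mean and SD as a bar; every panel spans the same number of log2 units. The groups are apart in all 5 panels, by far in Serpina4-ps1 (mean 7.38 in sh Grb14, 11.93 in sh scramble) and narrowly in Serpina3n (mean 13.09 in sh Grb14, 12.84 in sh scramble).

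The hormone carriers went opposite ways. Serpina7 encodes thyroxine-binding globulin, a plasma carrier of thyroid hormone. In sh Grb14 livers its lowest, median and highest values were 11.61, 11.80 and 12.14, and in sh scramble livers 9.39, 10.36 and 10.68. The lowest sh Grb14 mouse thus stood above the highest sh scramble mouse, and the spread was narrower in sh Grb14 mice, at 11.86 ± 0.23, against 10.14 ± 0.51 in sh scramble mice (SD, n = 6 each). Serpina7 rose by 1.71 (SE 0.18, 95% interval 1.32 to 2.10), which is 3.27-fold (limma adjusted p = 4.09e-07; exact permutation p = 0.00216). That exact p is the smallest that 12 mice in 2 groups of 6 can give, and it was the same for all 5 members. In rank, Serpina7 had the 484th largest rise of all genes tested.

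Serpina6 encodes corticosteroid-binding globulin, which carries glucocorticoids in the plasma. It had values of 11.25, 11.60 and 11.93 (lowest, median and highest) in sh Grb14 livers, against 12.41, 12.48 and 12.71 in sh scramble livers. All sh Grb14 mice were below all sh scramble mice, and their spread was wider (SD 0.26 in sh Grb14, 0.12 in sh scramble). Serpina6 fell by 0.90 (SE 0.097, 95% interval −1.11 to −0.70), to 53.4% of its level in sh scramble livers (limma adjusted p = 3.80e-07).

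Serpina3n encodes a secreted inhibitor that acts in mice on granzyme B and cathepsin G and is related to human alpha-1-antichymotrypsin. Its change was small and depended on the scaling. Its values were 13.06, 13.09 and 13.17 (lowest, median and highest) in sh Grb14 livers, against 12.71, 12.78 and 13.04 in sh scramble livers. The sh Grb14 mice lay close together, with an SD of 0.040, and the gap to the highest sh scramble mouse was narrow. Serpina3n rose by 0.25 (SE 0.053, 95% interval 0.14 to 0.36), which is 1.19-fold (limma adjusted p = 0.000618). With arrays centred on the median of the tested genes the change was 0.10 and did not pass (limma adjusted p = 0.0965; range over all alternatives 6.38e-05 to 0.0965). The gene stood above 99.6% of all genes in mean level, where values can be compressed, and its probe set can share signal with other Serpina3 transcripts.

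Serpina11, a secreted serpin expressed in liver, was lower in every sh Grb14 mouse than in any sh scramble mouse. It ran at 8.58, 8.75 and 9.01 (lowest, median and highest) in sh Grb14 livers, against 9.71, 9.78 and 9.87 in sh scramble livers. The means were 8.79 ± 0.17 in sh Grb14 and 9.79 ± 0.067 in sh scramble livers (SD, n = 6 each), so that 50.0% of the level in sh scramble livers was left (SE of the log2 change 0.069, 95% interval −1.15 to −0.86; limma adjusted p = 1.28e-09).

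Serpina4-ps1, a transcribed mouse pseudogene that corresponds to the human kallistatin gene, had the largest change of the members and the sixth largest fall of all genes tested. It stood at 7.01, 7.32 and 7.94 (lowest, median and highest) in sh Grb14 livers, against 11.09, 12.03 and 12.35 in sh scramble livers. More than 3 log2 units separate the groups, and the sh Grb14 values lie near the array medians. Serpina4-ps1 fell by 4.55 (SE 0.19, 95% interval −4.95 to −4.15), 23.4-fold lower (limma adjusted p = 2.50e-12).

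The other Serpina genes on the array were mostly lower. Of 10 further Serpina genes with a probe set of their own, 8 were lower, 1 was higher and 1 missed the threshold, and the median change was −0.38. Among all genes 39.5% were lower and 25.8% higher. Some of the lower Serpina genes were dim, as given below. Serpina1d, an alpha-1-antitrypsin gene, averaged 11.59 ± 0.33 in sh Grb14 livers and 12.93 ± 0.096 in sh scramble livers (SD, n = 6 each) and fell by 1.34 (SE 0.11; limma adjusted p = 1.89e-08). Serpina1c, its close relative, fell by 0.53 (SE 0.086; limma adjusted p = 5.46e-05). The alpha-1-antitrypsin genes are near-identical copies, so the share of each is uncertain. A further 2 probe sets name 5 Serpina1 genes together, and they were lower by 0.40 (SE 0.043) and 0.30 (SE 0.029) in a fit of every probe set (limma adjusted p = 2.10e-06 and 6.99e-07).

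Serpina12, which encodes vaspin, an adipokine also made in liver, fell by 1.03 (SE 0.11), and Serpina10, the protein Z-dependent inhibitor of coagulation factor Xa, fell by 0.52 (SE 0.081). Serpina9 fell by 0.47 (SE 0.069), Serpina1f by 0.29 (SE 0.072), Serpina3a by 0.25 (SE 0.086) and Serpina16 by 0.25 (SE 0.073). Serpina9, Serpina1f, Serpina3a and Serpina16 were dim on all arrays, and no detection call was made. The groups overlapped for Serpina1f, Serpina3a and Serpina16. Serpina3b, at −0.089 (SE 0.069), missed the threshold (limma adjusted p = 0.259), but with arrays centred on the tested genes it was at −0.24 and passed as lower (limma adjusted p = 0.0060; lowest and highest over all alternatives 0.0060 and 0.567). Serpina5, the protein C inhibitor, was the exception to the direction: it averaged 8.45 ± 0.34 in sh Grb14 livers and 7.08 ± 0.18 in sh scramble livers (SD, n = 6 each) and rose by 1.38 (SE 0.13; limma adjusted p = 9.49e-08).

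Along chromosome 12 the changes did not follow one level. The run from Serpina10 to Serpina3n holds 28 Serpina genes and pseudogenes in RefSeq, of which 14 had a probe set of their own: 11 were lower, 2 higher, and Serpina3b missed the threshold. Of all genes, 39.5% were lower and 25.8% higher. Serpina9, Serpina1f, Serpina3a and Serpina16, among the lower genes of the run, were dim. With the dimmest genes left out, these among them, 6124 of 14953 genes were lower and 4921 higher. Serpina4-ps1 and Serpina5, next to each other in that order, changed by −4.55 and 1.38. Outside the run, the nearest genes were Ppp4r4 on the Serpina10 side, with a change of −0.75 (SE 0.085), and Gsc on the Serpina3n side, with −0.33 (SE 0.068). Beside Serpina7 on chromosome X, the neighbour Nrk, at −0.11 (SE 0.088), missed the threshold, and it passed as lower, at −0.26, with arrays centred on the tested genes. Nrk was dim, at 4.96 in sh Grb14 and 5.08 in sh scramble livers, and no detection call was made. On the other side of Serpina7, 4930513O06Rik, at −0.069 (SE 0.068), missed the threshold in the main fit. It was dim too, at 4.10 in sh Grb14 and 4.17 in sh scramble livers.

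**Figure D2:**
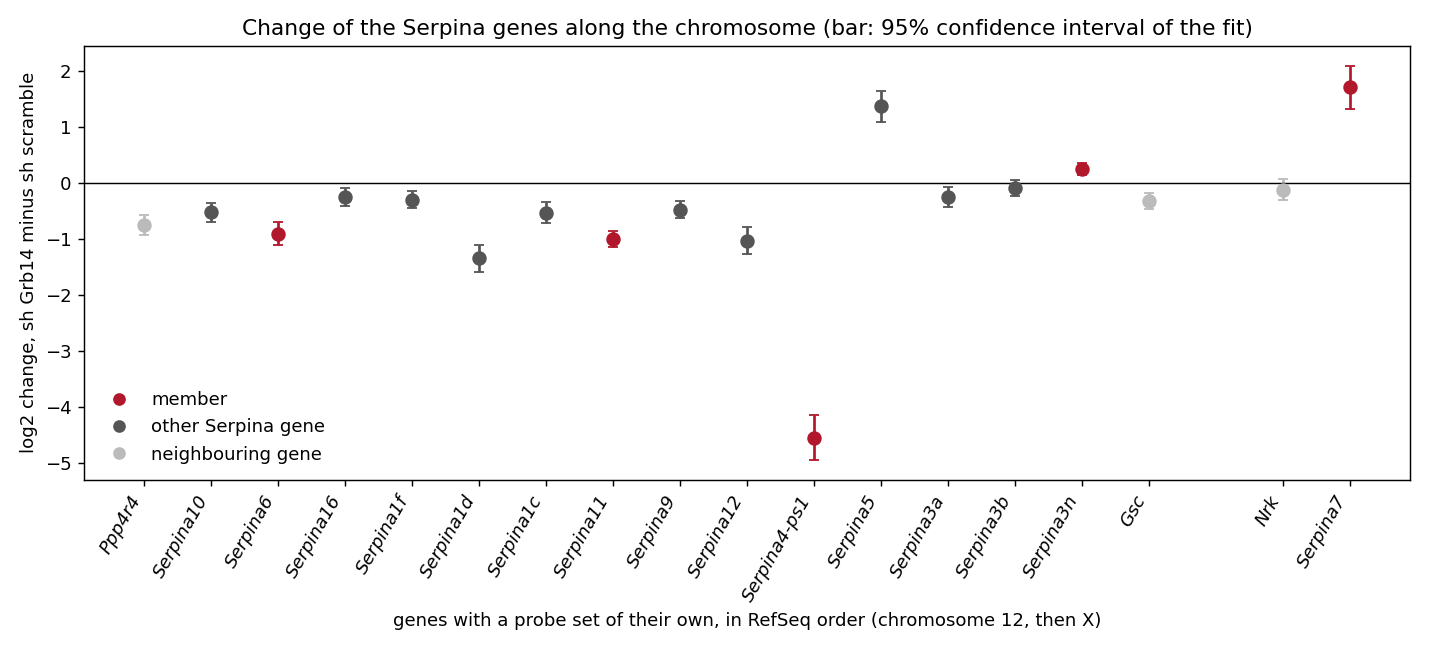
The log2 change, sh Grb14 minus sh scramble (vertical axis), is plotted for each Serpina gene with a probe set of its own and for 3 neighbouring genes, in RefSeq order on chromosome 12 and then X (horizontal axis); bars are 95% confidence intervals of the fit. Members in red lie on both sides of 0, from Serpina4-ps1 at −4.55 to Serpina7 at 1.71, and Serpina5 at 1.38 stands beside Serpina4-ps1.

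Single sh scramble mice showed how the members vary within a group. Serpina3n was highest in sh scramble mice 5 and 6 (13.04 and 13.01), against 12.71 to 12.82 in the other sh scramble mice, and Serpina7 was lowest in the same 2 mice (9.39 and 9.62, against 10.33 to 10.68). These mice also had the highest values of Saa1, a serum amyloid A gene of the acute phase, at 9.04 and 9.36, against 6.76 to 7.20 in the other sh scramble mice. Lcn2, an acute phase iron-siderophore binder, was 10.15 and 10.18 in them, against 9.23 to 9.56. Of 15 acute phase genes, 11 were higher in both of these mice than in any other sh scramble mouse, and 4 were not. These mice were singled out by their Serpina3n and Serpina7 values. The share of all genes that were higher in both is not given here, so the count is a description. In sh scramble mouse 6 alone Serpina4-ps1 was low, at 11.09, against 11.94 to 12.35 in the others. The same mouse had the lowest Onecut1, a liver transcription factor gene that responds to growth hormone, at 9.15, against 11.11 to 11.58. Its Socs2, a feedback inhibitor of growth hormone signalling, was also the lowest, at 8.86, against 9.62 to 11.34. Cish and Bcl6, targets of STAT5 signalling, shown here after their values were seen, stood at 7.47 (against 8.12 to 9.68) and 10.43 (against 7.64 to 9.50) in that mouse. Of the 11 growth hormone and STAT5 genes, mouse 6 had the lowest value of its group for 5, the highest for 2 and a value within the range of the others for 4. The matching shares over all genes are not given here, and it was the Serpina4-ps1 value that singled out mouse 6. Ghr, the growth hormone receptor gene, was its group's highest there (12.84, against 12.78 to 12.81), and Egfr lay within the range (12.66, against 12.56 to 13.00).

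**Figure D3:**
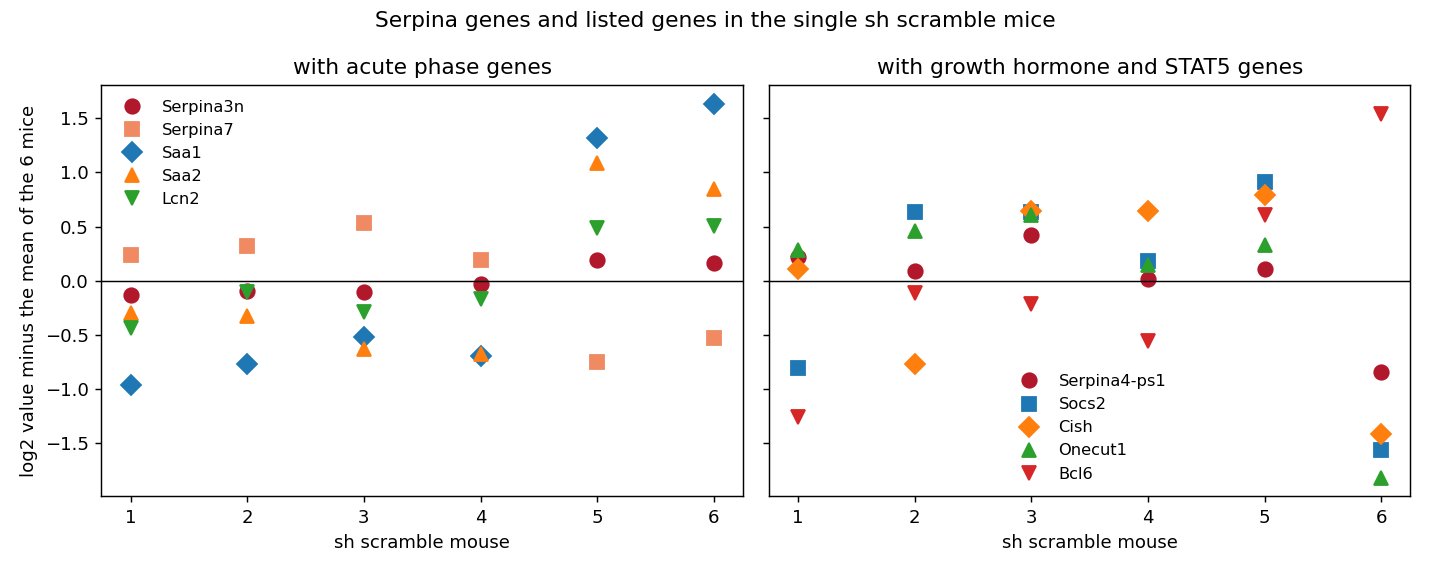
Each point is the log2 value of a gene in 1 sh scramble mouse minus the mean of the 6 sh scramble mice (vertical axis). The horizontal axis is the mouse number, in the order of the labels. On the left Serpina3n, Saa1, Saa2 and Lcn2 are highest and Serpina7 lowest in mice 5 and 6; on the right Serpina4-ps1, Socs2, Cish and Onecut1 are lowest and Bcl6 highest in mouse 6.

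Pairs of members were correlated within each group of 6 mice, 20 relations in all. In sh Grb14 mice the closest was Serpina4-ps1 with Serpina7 (Pearson r = 0.97, exact permutation p = 0.00417, adjusted p = 0.0556; Spearman rho = 0.94, exact p = 0.0167, adjusted p = 0.333), and r was 0.93 without the 2 mice farthest from the median. In sh scramble mice Serpina3n ran with Serpina11 (r = 0.95, exact permutation p = 0.00556, adjusted p = 0.0556; rho = 0.89, exact p = 0.0333, adjusted p = 0.333; r = 0.99 without the 2 farthest). Serpina3n ran against Serpina7 (r = −0.96, exact permutation p = 0.0125, adjusted p = 0.0833; rho = −0.83, exact p = 0.0583, adjusted p = 0.389), and r was −0.35 without the 2 farthest mice, so it rests on them. None of the 20 relations passed after Benjamini-Hochberg adjustment.

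For each member the genes most like it were those with the highest Pearson correlation of deviations from the group means over the 12 arrays. For Serpina6 the first was Cpn2, a subunit of the plasma carboxypeptidase N (0.976), which fell by 1.79 (SE 0.099). For Serpina3n it was Srgn, a proteoglycan of leukocyte granules (0.945), which rose by 1.70 (SE 0.067). By group, Serpina3n and Srgn had r = 0.97 in sh scramble mice and 0.78 in sh Grb14 mice, where Serpina3n varied less (SD 0.14 and 0.040). Next to Serpina4-ps1 stood Rab11fip1 (0.938), to Serpina7 Mars1, a methionyl-tRNA synthetase (0.930), and to Serpina11 Klhl24 (0.905). Rab11fip1 rose by 0.24 (SE 0.050) while Serpina4-ps1 fell, and did not pass with arrays centred on the tested genes (0.094). Mars1 fell by 0.30 (SE 0.050) while Serpina7 rose, and Klhl24 fell by 0.37 (SE 0.064), as Serpina11 did. Likeness within the groups thus did not always go with the same direction of change. These are the highest values among all genes tested on 12 arrays, and they are given as a description.

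Proteases of the kinds that serpins inhibit changed in both directions. Proc, F2 and F11 are targets of serpins that are not among the members. Gzmb, the cytotoxic protease granzyme B, averaged 10.10 in sh Grb14 livers and 6.63 in sh scramble livers, a rise of 3.46 (SE 0.087; limma adjusted p = 9.94e-15), in livers where cytotoxic cell markers, Gzmb among them, were higher as given above. Ctsb, cathepsin B, rose by 0.61 (SE 0.040), while Proc, the zymogen of protein C, fell by 0.74 (SE 0.049) and F2, prothrombin, by 0.43 (SE 0.038). The neutrophil proteases Elane, Prtn3 and Ctsg, the mast cell chymase Cma1 and coagulation factor F11 were at −0.062, 0.11, 0.047, −0.15 and −0.023 and missed the threshold. Ctsg and Cma1 were dim (6.16 and 5.63 in sh Grb14, 6.11 and 5.78 in sh scramble livers), and no detection call was made. With arrays centred on the tested genes Elane, Cma1 and F11 passed as lower, at −0.21, −0.30 and −0.17. Cma1 lay close to the threshold and also passed without any one of sh scramble mice 4, 5 and 6 or sh Grb14 mice 4 and 5, at −0.18 to −0.16. It passed too, at −0.20 to −0.15, with array weights, both arrays of lowest weight left out, or centring on array medians. The same held with the mean of all probe sets or no intensity trend. In all, 3 of 10 measured proteases were higher and 2 lower (25.8% and 39.5% of all genes), and the median change was 0.012.

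The 33 serpins of other clades held 10 higher genes, 8 lower and 15 that missed the threshold, and their median change was −0.043. Over all genes the shares were 25.8% higher and 39.5% lower. Serpinb6a and Serpinb6b, intracellular inhibitors, rose by 1.83 (SE 0.084) and 1.82 (SE 0.090), and Serpinb9, which inhibits granzyme B inside cells, rose by 1.67 (SE 0.076). Serpinb8, also intracellular, was higher too, at 8.39 in sh Grb14 livers and 6.89 in sh scramble livers (SE of the change 0.12). Serpinf1, which encodes pigment epithelium-derived factor, fell by 0.94 (SE 0.061), and Serpinc1, antithrombin, by 0.30 (SE 0.037).

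The thyroid hormone genes were lower beside the higher Serpina7. Dio1, the liver enzyme that activates thyroxine, averaged 8.08 in sh Grb14 livers and 11.38 in sh scramble livers, and fell by 3.29 (SE 0.16; limma adjusted p = 1.28e-11). Thrsp, a thyroid hormone responsive gene of fat synthesis, fell by 2.94 (SE 0.11), the receptor gene Thrb by 1.31 (SE 0.072), Me1, malic enzyme, by 0.72 (SE 0.091) and Ttr, another plasma thyroxine carrier, by 0.29 (SE 0.039). The receptor gene Thra, at 0.012 (SE 0.046), missed the threshold (limma adjusted p = 0.828) and was lower by 0.14 with arrays centred on the tested genes. The other 6 of the 7 measured genes were all lower, beside 39.5% of all genes, and the median change was −0.72.

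The glucocorticoid genes were mixed beside the lower Serpina6. Hsd11b1, which regenerates active glucocorticoid in liver, fell by 1.73 (SE 0.10), Tat, tyrosine aminotransferase, by 1.38 (SE 0.13), Tsc22d3 by 1.24 (SE 0.12) and the receptor gene Nr3c1 by 0.37 (SE 0.039). Sgk1 and Fkbp5, response genes of the same list as Tat and Tsc22d3, rose by 0.90 (SE 0.10) and 0.69 (SE 0.11). Per1 and Dusp1, also of that list, were at 0.23 (SE 0.14) and −0.14 (SE 0.20) and missed the threshold. The call of Per1 turned on sh Grb14 mouse 3: without it Per1 was at 0.37 and passed (limma adjusted p = 0.00405). Dusp1 did not pass whichever mouse was left out. It was at 0.012 without sh scramble mouse 6 and at −0.0021 without sh Grb14 mouse 3. Thus 5 of 9 measured genes were lower and 2 higher (39.5% and 25.8% of all genes), and the median change was −0.37.

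Inputs to the acute phase response changed, and so did its output, both ways. Osmr, the oncostatin M receptor gene, rose by 1.64 (SE 0.073), the cytokine genes Il1b and Lif by 1.34 (SE 0.12) and 1.04 (SE 0.090), and Jak2 by 0.94 (SE 0.056). Il6ra, the interleukin 6 receptor gene, fell by 0.64 (SE 0.082), as did Il6st, its signalling partner, by 0.24 (SE 0.046). Il6 itself, Osm, Cebpb and Cebpd were at −0.091, 0.17, −0.16 and 0.15 and missed the threshold. Il6 and Osm were dim (4.10 and 6.14 in sh Grb14, 4.19 and 5.97 in sh scramble livers), and no detection call was made. Each of Il6, Osm, Cebpb and Cebpd passed under some setting: Il6 and Cebpb as lower with arrays centred on the tested genes (−0.24 and −0.30), Osm as higher without sh scramble mouse 2 (0.26), Cebpb without sh scramble mouse 2 or 3 (−0.19 and −0.20) and Cebpd without sh scramble mouse 4 or sh Grb14 mouse 3 (0.20 and 0.19). Osm and Cebpb also passed with a repeated quantile normalization (0.21 and −0.24), and Cebpb with array weights (−0.19). Of 13 measured genes of interleukin 6 and STAT3 signalling 7 were higher and 2 lower, and the median change was 0.17. Over all genes 25.8% were higher and 39.5% lower. Among 15 acute phase proteins 6 were higher and 7 lower, Orm2 and Apcs missed the threshold at 0.48 (SE 0.29) and 0.20 (SE 0.10), and the median was 0.093. Orm2 turned on sh scramble mouse 5 (11.44, against 9.48 to 10.30 in the other sh scramble mice): without it the change was 0.76 and passed (limma adjusted p = 0.00323), and without sh Grb14 mouse 2 it was 0.32. Apcs passed without sh scramble mouse 5 or sh Grb14 mouse 4 (0.27 and 0.26). It also passed with array weights (0.23) and with both arrays of lowest weight left out (0.31). Lcn2 rose by 3.54 (SE 0.13) and Saa3 by 1.70 (SE 0.17), whereas Saa1 and Saa2 fell by 1.56 (SE 0.42) and 1.53 (SE 0.39). The groups overlapped for Saa1 and Saa2, and both genes were highest in sh scramble mice 5 and 6. In these mice Saa1 stood at 9.04 and 9.36 and Saa2 at 10.56 and 10.31. In the other sh scramble mice Saa1 ran from 6.76 to 7.20 and Saa2 from 8.79 to 9.17.

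Genes of growth hormone signalling and of hepatocyte transcription factors were mostly lower. Onecut1 fell by 2.42 (SE 0.30), Igfals, which encodes a carrier subunit of plasma IGF1, by 1.91 (SE 0.080), Egfr by 1.84 (SE 0.088) and Socs2 by 1.51 (SE 0.32). The groups overlapped for Socs2, at 8.75 to 9.10 in sh Grb14 and 8.86 to 11.34 in sh scramble livers. Stat5a and Bcl6, at −0.081 (SE 0.056) and −0.47 (SE 0.32), missed the threshold. Bcl6 was at −0.17 without sh scramble mouse 6 and passed, at −0.73, without sh scramble mouse 1 (limma adjusted p = 0.0322). Stat5a passed as lower without sh scramble mouse 3 (−0.12), with a repeated quantile normalization (−0.15) and with arrays centred on the tested genes (−0.23). The other 9 of the 11 measured growth hormone and STAT5 genes were all lower, beside 39.5% of all genes, and the median change was −0.88. All 8 measured hepatocyte transcription factor genes fell, with a median of −0.69. Cebpa, a main factor of liver gene expression, fell by 1.71 (SE 0.055), Foxa1 by 1.07 (SE 0.091), the bile acid receptor gene Nr1h4 by 0.93 (SE 0.055), Foxa2 by 0.75 (SE 0.13) and Hnf4a by 0.37 (SE 0.060). The groups overlapped for Foxa2, at 8.04 to 8.39 in sh Grb14 and 8.33 to 9.29 in sh scramble livers. By contrast all 7 measured interferon gamma and NF-kB genes were higher, beside 25.8% of all genes, and their median change was 1.36. Irf1 rose by 1.63 (SE 0.097), Ifngr1 by 1.54 (SE 0.072), Ifng by 1.41 (SE 0.099) and Tnf by 1.36 (SE 0.074). In the same livers the macrophage and T cell markers were higher, as given above, and their part in these lists was not tested.

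**Figure D4:**
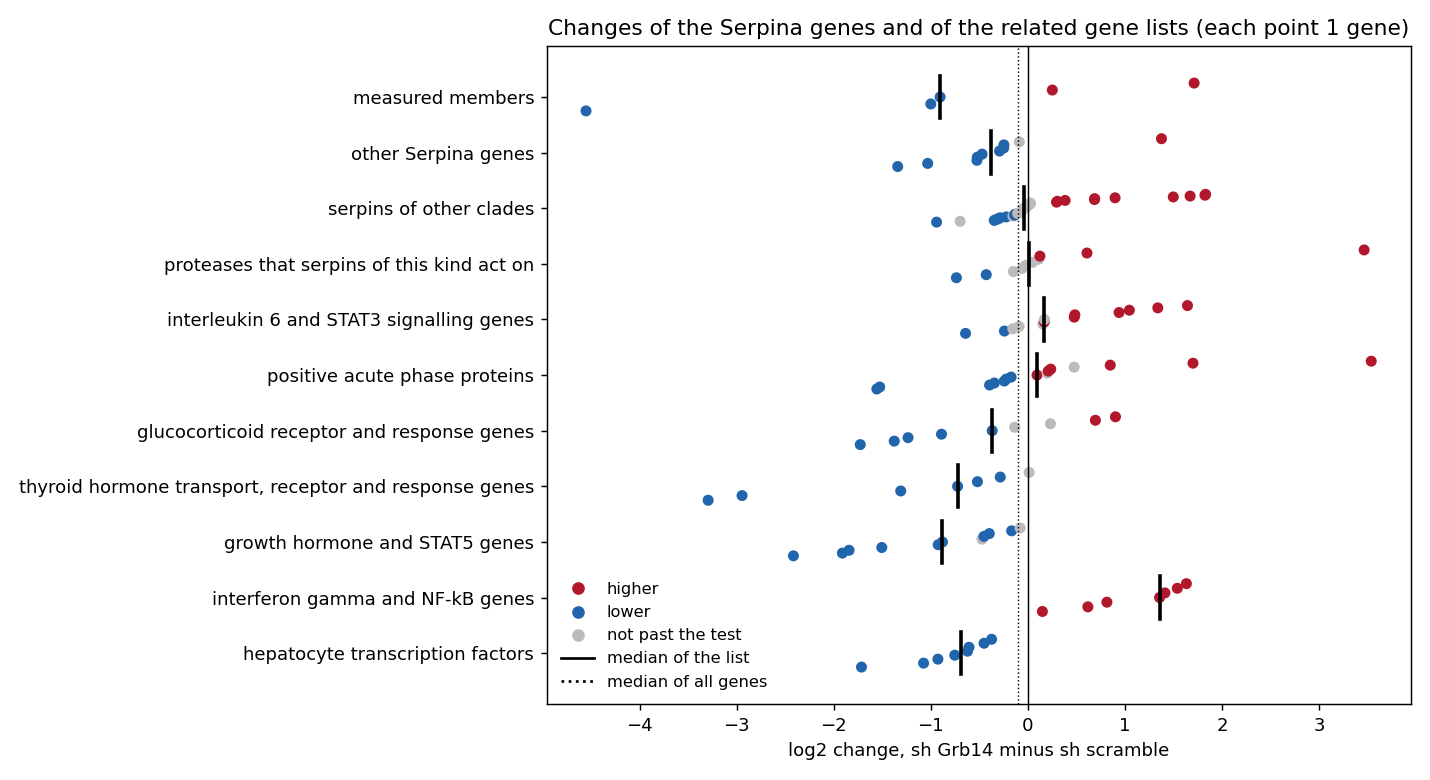
Each point is the log2 change, sh Grb14 minus sh scramble (horizontal axis), of 1 gene, in red where it was higher, in blue where it was lower and in grey where it did not pass; each row is a gene list, the thick bar its median and the dotted line the median of all genes, −0.10. The measured Serpina members spread from −4.55 to 1.71, the growth hormone and hepatocyte factor lists lie at or below 0, and the interferon gamma and NF-kB list lies above 0.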

How the data were processed

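Liver RNA was isolated with Trizol, and biotinylated cDNA made from 100 ng of it was hybridised to Affymetrix GeneChip arrays, 1 per mouse, per the labels' protocols. The authors deposited log2 values for 35556 probe sets. The submitters' processing notes name RMA and Partek, while their settings and the build are not given in the sources used here. Probe sets were named by the platform annotation: 21789 had 1 symbol, 1621 several and 12146 no listed gene, and 21698 matched RefSeq by gene ID with 0 symbols changed. For genes with several probe sets, the one with the highest mean was used. The 19938 genes were fitted with limma 3.58.1 in R 4.3.3 (lmFit, eBayes with an intensity trend, no covariate), and a gene passed at a Benjamini-Hochberg adjusted p under 0.05 over all genes. Exact permutation tests were two-sided, over the assignments of 12 mice to 2 groups of 6. The fit was tested on simulated data. Named were all members, the other Serpina genes, the 4 genes with the largest changes past the test per list, with genes that did not pass (where 5 or fewer) or went against their list, nearest neighbours, and the genes most like each member, only some of which are printed. Nr3c1, Ttr, Hnf4a, Serpinf1, Serpinc1, Cish and Cd4 were named after their values were seen. Members and lists were chosen with earlier results of these data known. No scan date or batch is given in the labels, so a batch that followed the groups cannot be told apart from them. The number of arrays limits the precision.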

Additional observations from a re-analysis of the deposited data

Results flagged for a closer look

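Serpina4-ps1 in sh scramble mouse 6 was 11.09, away from the other 5 sh scramble mice (11.94 to 12.35). Its gap to the nearest of them was 0.678 of the whole range of the group, above Dixon's 95% critical value for 6 samples. Of 10 groups of 6 looked at (5 members in both groups), this was the only one past that value, and chance gives about 1 in 20. Without this mouse the change of Serpina4-ps1 was −4.72, against −4.55 with it.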

How the results depend on the processing

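Of 19938 genes 13012 passed the test, 11877 to 13497 when 1 mouse was left out in turn and 13023 to 16802 under the other settings that keep all genes. With the dimmest genes left out 11045 of 14953 genes passed, and with every probe set on its own 18691 of 35556 probe sets. The count of members past the test was 5, also 5 whichever mouse was left out, and it was 4 with arrays centred on the median of the tested genes, where Serpina3n did not pass (0.10). The settings were centring on array medians or on the median of the tested genes, a repeated quantile normalization, no intensity trend, the dimmest genes left out, the mean of all probe sets, every probe set on its own, array weights, and both arrays of lowest weight left out. Centring on tested genes and leaving out those 2 arrays (sh Grb14 4 and 5) were chosen after the data were seen. Under all of these, Serpina7 stayed between 1.56 and 1.82, Serpina6 between −1.05 and −0.78, Serpina11 between −1.15 and −0.96 and Serpina4-ps1 between −4.72 and −4.37, each past the test. Tmbim4, Alb and Thra reversed to −0.12, −0.11 and −0.14 with arrays centred on the tested genes. Among named genes, 12 comparisons no longer passed and 36 newly passed, of 2258. The cause was not tested. No paired analysis was possible because the mice of the 2 groups share no number in the labels. Signal near the top or the bottom of the scale can understate changes.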
